A study of Mus musculus with 899 samples.

Results

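miR-34a is a microRNA whose hairpin precursor yields 2 mature strands, mmu-miR-34a-5p and mmu-miR-34a-3p. These are 2 of the 1915 mature miRNA counted in mouse plasma here, taken by their names over every strain, treatment and time point. Plasma came from 196 young adult mice of both sexes. Of the C3Hf/Sed/Kam (C3H) mice, 64 received whole thorax lung irradiation (WTLI) and 32 a sham treatment. Of the C57Bl/6 (C57) mice, 68 received WTLI, 4 more than the 64 that the series' design names, and 32 a sham treatment. WTLI was a single X-ray exposure of the chest of anesthetized mice with the rest of the body shielded. The mice were gnotobiotic, and no genetic change is named for either strain. Blood was drawn before irradiation (PT), at day 2 (D2) or day 5 (D5), and then monthly, to month 4 (M4) in C3H and to month 6 (M6) in C57. It came from the orbit of live mice and from the heart of euthanized ones, and the labels do not say which sample is which. The sample titles code 2 sets of mice per strain, G2 and G4 in C3H and G1 and G3 in C57, and only G1 and G2 were sampled past month 1 (M1). Most mice were therefore read at several time points, with either a D2 or a D5 sample, and 4 irradiated C57 mice had no PT sample. At D2 and D5 each strain had 32 irradiated and 16 sham mice, and the irradiated mice sampled fell to 17 at M4 in C3H and to 8 at M6 in C57.

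A miRNA is a short RNA that guides Argonaute proteins to messenger RNAs carrying a match to its seed, bases 2 to 8, and lowers their translation and stability. The gene of miR-34a is a direct transcriptional target of p53, the transcription factor that DNA damage stabilizes. Its known targets include cell-cycle and survival genes such as Cdk6, Ccnd1, Bcl2, Met and Sirt1, and raising miR-34a in cultured cells slows division. After cleavage of the hairpin one strand, here the 5p arm, is mostly kept in Argonaute, and the other is degraded. The relatives miR-34b and miR-34c come from another p53-responsive transcript, which is active in airway epithelium and testis, and the miR-449 cluster belongs to multiciliated cells. Plasma carries miRNA released from many tissues in vesicles and protein complexes.

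The mature sequences are shown first because the arms and the relatives differ in their seeds, which are printed in capitals. They were read from RefSeq for mouse build GRCm38.p6, in which 9 of the 11 miR-34 and miR-449 names had a mature sequence, all but miR-34c-5p and miR-449b. The sequences that share the seed of miR-34a-5p, and the 3p arms with reads, are as follows.
mmu-miR-34a-5p: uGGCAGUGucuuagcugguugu
mmu-miR-34b-5p: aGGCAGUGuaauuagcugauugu
mmu-miR-449a-5p: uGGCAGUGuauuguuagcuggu
mmu-miR-449c-5p: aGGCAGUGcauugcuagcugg
mmu-miR-34a-3p: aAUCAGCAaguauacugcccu
mmu-miR-34b-3p: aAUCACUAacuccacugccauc
mmu-miR-34c-3p: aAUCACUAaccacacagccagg
The 4 5p arms printed here share 1 seed, which no other of the 1679 mature names in that RefSeq table carries. That table has no sequence of miR-34c-5p or miR-449b, so whether they carry this seed was not read. The seed of miR-34a-3p occurs once in the table, whereas miR-34b-3p and miR-34c-3p share theirs.

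The Mir34a hairpin of 102 bases lies at chr4:150068454-150068555 on the plus strand of GRCm38.p6. The 22 bases of the 5p arm are at chr4:150068473-150068494 and the 21 bases of the 3p arm at chr4:150068517-150068537. The hairpin reads as follows, with both arms in capitals and 22 bases between them.
Mir34a hairpin: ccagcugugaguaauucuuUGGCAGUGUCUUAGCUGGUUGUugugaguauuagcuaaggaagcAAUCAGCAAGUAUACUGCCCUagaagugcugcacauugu
In the GENCODE annotation of that build it overlaps no protein-coding gene. The 3′ end overlaps 17 bases of Gm37795, a transcript of unconfirmed status. The nearest protein-coding genes are H6pd, 59431 bases before it on the minus strand, and Gpr157, 18810 bases after it on the plus strand.

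Samples held 206490 to 11814515 reads (median 1475030), and the median depth of a group ranged from 855374 to 2882714 reads. No 2 samples had identical counts. The marker lists for cells that could release miRNA into plasma were all readable: all 6 red blood cell, 8 leukocyte, 3 liver, 2 endothelial and 5 muscle miRNA passed the filter on low counts that kept 483 miRNA.

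Nearly all reads of miR-34a in plasma came from the 5p arm. miR-34a-5p was read in every sample, with a median of 336 reads, and ranked 104 of 1915 by its median of 223 CPM (read counts scaled to a common library size). miR-34a-3p, the passenger strand, had 32 reads in 15 samples and never more than 4 in a sample. These are 0.00746% of the reads of both arms together, with an exact 95% binomial interval of 0.0051% to 0.0105%, which covers counting error only.

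The few samples with a 3p read gave no difference between the treatments. A 3p read was found in 11 of 451 irradiated samples after irradiation, in 2 of 256 sham samples after the same times and in 2 of 192 samples before irradiation. Over 16 two-sided Fisher's exact tests of WTLI against sham the lowest p was 0.333, and the lowest Benjamini-Hochberg adjusted p was 1. Two-sided permutation tests of the 3p share, in samples with at least 10 reads of both arms, had a lowest p of 0.573 and a lowest adjusted p of 1. The 3p arm did not pass the filter. In the edgeR fit without the filter, none of the 10 contrasts with a 3p read was called (lowest Benjamini-Hochberg adjusted p = 0.197), while 4 had an unadjusted p under 0.05. At this depth a change of the 3p arm was not detectable. All further values are of miR-34a-5p.

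Levels of miR-34a-5p are given as log2 CPM, with a CPM a share of the library's reads after scaling of library sizes. Effects are log2 fold changes, WTLI minus sham, from the quasi-likelihood F test of edgeR. Their p-values were adjusted over the 483 miRNA by the Benjamini-Hochberg method, and a miRNA was called at an adjusted p under 0.05. In plasma, more releasing cells and more RNA released per cell cannot be told apart. Samples of 1 group are different mice, so the spread within a group is between animals.

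Before irradiation the groups to be irradiated and the sham groups differed little in miR-34a-5p. The C3H mice had a lowest, median and highest level of 4.68, 6.32 and 7.87 in the 32 sham samples and of 3.89, 6.20 and 7.95 in the 64 to be irradiated. The C57 mice had 5.72, 6.55 and 7.59 in sham and 3.42, 6.48 and 7.73 in the 64 to be irradiated. The ranges of both treatments lay over each other in both strains. The difference was -0.051 in C3H (SE 0.14, edgeR adjusted p = 0.994) and -0.098 in C57 (SE 0.14, adjusted p = 0.973). Of the 483 miRNA 0% were called in either strain, and 32 in C3H and 25 in C57 had an unadjusted p under 0.05.

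At D5 the level of miR-34a-5p in irradiated mice was more than 3 times that of sham mice in both strains. In C3H the 16 sham samples had a lowest, median and highest level of 6.35, 7.24 and 8.38, and the 32 irradiated samples 7.68, 9.04 and 10.16. In C57 the sham samples had 5.26, 6.94 and 7.17, and the irradiated samples 6.87, 8.26 and 9.75. The irradiated samples were shifted upward as a whole, with the overlap limited to the low irradiated and the high sham samples. In C3H 26 of 32 irradiated mice were above every sham mouse, and in C57 31 of 32 were.

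The D5 effect was 1.80 in C3H (SE 0.22, edgeR quasi-likelihood adjusted p = 1.82e-13), a 3.49-fold higher level with a 95% interval of 2.59 to 4.70. Of the 483 miRNA, 3.11% were called in C3H at D5, and miR-34a-5p had the largest log2 fold change and the second smallest p of them. The D5 effect was 1.70 in C57 (SE 0.22, adjusted p = 1.59e-11), a 3.26-fold higher level with an interval of 2.41 to 4.40. There 14.1% of the miRNA were called, and miR-34a-5p had the smallest p. The call was kept in each of the 16 alternative analyses in either strain.

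**Figure D1:**
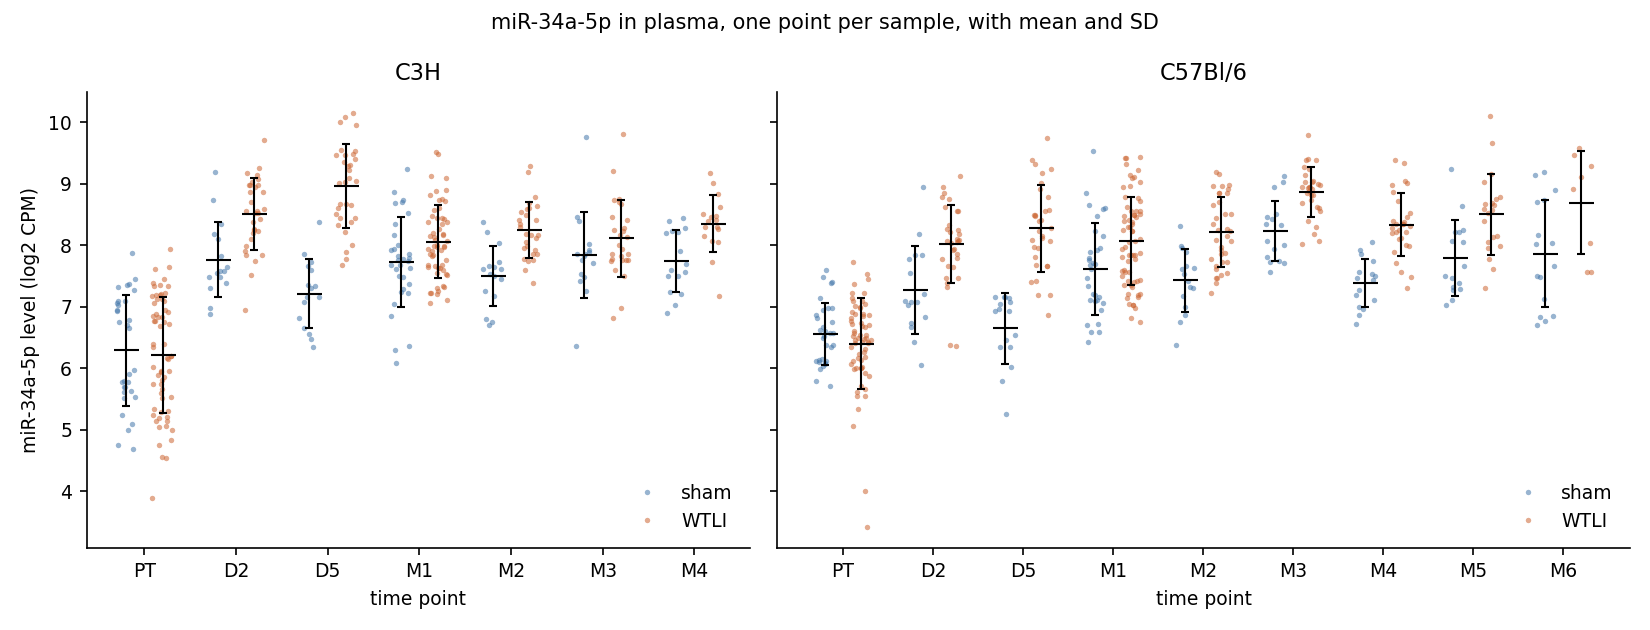
Level of miR-34a-5p in each plasma sample (log2 CPM, vertical axis) by time point for C3H and C57 mice, with sham and irradiated samples side by side and the mean ± SD of each group. At D5 the means are 7.22 (sham) and 8.96 (WTLI) in C3H and 6.65 and 8.28 in C57. The PT group means are the lowest of each strain, while single samples of other groups reach as low.

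At D2 the level was already higher, by a smaller factor, and the groups overlapped over most of their range. In C3H the sham samples had a lowest, median and highest level of 6.88, 7.59 and 9.19, and the irradiated samples 6.94, 8.54 and 9.72. In C57 the sham samples had 6.05, 7.09 and 8.94, and the irradiated samples 6.37, 8.07 and 9.12. Only 2 of 32 irradiated mice in each strain were above every sham mouse.

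The D2 effect was 0.71 in C3H (SE 0.21, edgeR adjusted p = 0.0201, 1.64-fold), where 4.97% of the miRNA were called. It was 0.70 in C57 (SE 0.21, adjusted p = 0.017, 1.62-fold), where 6.63% were called. The C3H call at D2 was lost when each mouse was compared with its own PT sample (limma-voom with the mouse as a fixed block, 0.60, adjusted p = 0.166). It was lost too within either set of mice alone, at an effect of nearly the same size (0.70 in G2 and 0.72 in G4). The C57 call at D2 was lost in males alone (0.22, edgeR adjusted p = 0.77) and in set G3 alone (0.68, adjusted p = 0.147).

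The D5 effect exceeded the D2 effect by 1.01 in C57 (SE 0.29, edgeR adjusted p = 0.017, with 6.63% of the miRNA called for this change). With the mouse as a random block in limma-voom, this difference was 0.92 and its adjusted p was 0.0802. In C3H the D5 effect exceeded the D2 effect by 1.09 (SE 0.28, adjusted p = 0.0692), where 0% of the miRNA were called and 19 had an unadjusted p under 0.05, and with the random block by 1.07 (adjusted p = 0.0291). The sham means behind these effects were 7.77 at D2 and 7.22 at D5 in C3H, and 7.28 and 6.65 in C57. The irradiated means were 8.51 and 8.96 in C3H, and 8.03 and 8.28 in C57. From D2 to D5 the sham means were thus lower and the irradiated means higher, in different mice.

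From D5 to M1 the effect fell in both strains. It dropped by 1.52 in C3H (SE 0.25, edgeR adjusted p = 1.64e-06, with 1.24% of the miRNA called) and by 1.28 in C57 (SE 0.25, adjusted p = 3.48e-05, with 10.1% called). At M1 the C3H sham samples had a lowest, median and highest level of 6.08, 7.76 and 9.25, and the 58 irradiated samples 7.06, 7.99 and 9.52. The C57 sham samples had 6.44, 7.64 and 9.54, and the 68 irradiated samples 6.75, 8.06 and 9.44. The groups overlapped almost fully at M1.

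The M1 effect was 0.28 in C3H (SE 0.15, edgeR adjusted p = 0.408, with 3.31% of the miRNA called). In C57 it was 0.43 (SE 0.14, adjusted p = 0.0708, with 3.73% called). The C57 value did not pass the threshold here but did so with the mouse as a random block (0.48, limma-voom adjusted p = 0.0294).

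**Figure D2:**
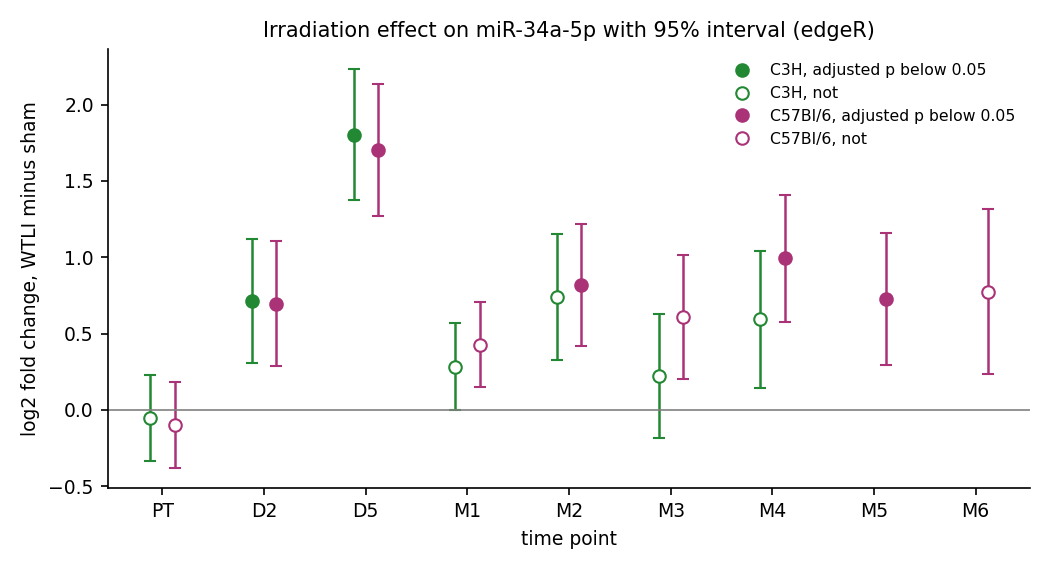
Effect of irradiation on miR-34a-5p (log2 fold change, WTLI minus sham, vertical axis) at each time point in C3H and C57 mice, with the 95% interval of each and filled points where the adjusted p was below 0.05. The effects are highest at D5, at 1.80 and 1.70, lie near 0 at PT (-0.051 and -0.098), and are above 0 at every time point after irradiation.

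In the later months the effect stayed positive at every time point of both strains, at 0.22 to 0.99, and passed the threshold at M2, M4 and M5 in C57. A positive value was thus measured at 14 of 14 time points after irradiation, 2 of 6 called in C3H and 5 of 8 in C57. The difference between the strains was not called at any of the shared time points (0.40 or less in size at each).

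In C57 the late effect rested on irradiated mice of set G1. At M2 the sham samples had a lowest, median and highest level of 6.38, 7.48 and 8.32, and the 36 irradiated samples 7.23, 8.19 and 9.20. The effect was 0.82 (SE 0.21, edgeR adjusted p = 0.00507, 1.76-fold), where 3.31% of the miRNA were called. Of the irradiated mice, 15 of 36 lay above every sham mouse.

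At M4 the separation of the C57 groups was the clearest of the late months. The sham samples had 6.72, 7.46 and 8.06, and the 29 irradiated samples 7.31, 8.32 and 9.39, of which 22 lay above every sham sample. The effect was 0.99 (SE 0.21, edgeR adjusted p = 0.000295, 1.99-fold), with 4.76% of the miRNA called.

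At M3, M5 and M6 the values in C57 were of like size, and the calls depended on the fit. At M3 sham samples had 7.56, 8.20 and 9.12 and the 31 irradiated samples 8.03, 8.93 and 9.80, an effect of 0.61 (SE 0.21, edgeR adjusted p = 0.115, with 1.66% called). With the mouse as a random or a fixed block the M3 effect was 0.64 and 0.84 (limma-voom adjusted p = 0.0266 and 0.00654). At M5 sham samples had 7.03, 7.58 and 9.24 and the 21 irradiated samples 7.31, 8.58 and 10.10, an effect of 0.73 (SE 0.22, edgeR adjusted p = 0.0335, with 3.52% called).

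The M5 call was lost without the 4 irradiated C57 mice that had no PT sample (0.63, edgeR adjusted p = 0.128). That fit kept 18 of the 21 irradiated M5 samples. At M6 the 16 sham samples had 6.70, 7.85 and 9.20 and the 8 irradiated samples 7.56, 9.02 and 9.58. The M6 effect was 0.77 (SE 0.28, edgeR adjusted p = 0.252, with 0.414% called), and with the mouse as a random or a fixed block it was 0.91 and 1.18 (limma-voom adjusted p = 0.0352 and 0.0013). These M6 samples are the few irradiated mice still sampled at that time.

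In C3H no late effect passed the threshold in the 32-group fit, and M2 came nearest. At M2 the sham samples had a lowest, median and highest level of 6.70, 7.58 and 8.38, and the 28 irradiated samples 7.39, 8.18 and 9.30, with 11 of 28 above every sham sample. The effect was 0.74 (SE 0.21, edgeR adjusted p = 0.0592), where 0.621% of the miRNA were called, and miR-34a-5p had the fourth smallest p. It passed the threshold with the mouse as a random block (0.73, limma-voom adjusted p = 0.0326) and as a fixed block (0.83, adjusted p = 0.046).

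At M3 and M4 the C3H groups lay closer. The M3 sham samples had 6.36, 7.84 and 9.77 and the 27 irradiated samples 6.83, 8.01 and 9.81, an effect of 0.22 (SE 0.21, edgeR adjusted p = 0.623, with 2.07% called). The M4 sham samples had 6.90, 7.65 and 8.44 and the 17 irradiated samples 7.17, 8.40 and 9.18, an effect of 0.59 (SE 0.23, adjusted p = 0.302, with 0.414% called).

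After M1 the effect did not change detectably from 1 month to the next. In C3H the changes were 0.46 from M1 to M2, -0.52 from M2 to M3 and 0.37 from M3 to M4, none of them called, against 0.207%, 0% and 0% of the miRNA called in these comparisons. In C57 they were 0.39, -0.21, 0.38, -0.26 and 0.047 from M1 to M6, none of them called, against 0.414%, 0%, 0.828%, 0% and 0%.

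The irradiation effect on miR-34a-5p was compared between the strains over the 6 shared time points. The edgeR F test gave an adjusted p of 0.938, while 4.35% of the 483 miRNA were called in the same test. The C57 effect minus the C3H effect was -0.018 at D2, -0.098 at D5, 0.14 at M1, 0.078 at M2, 0.38 at M3 and 0.40 at M4, with SEs of 0.20 to 0.31. The width of these intervals leaves room for a difference, so the effects were not shown to be equal.

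With both sets of mice pooled, the strains started from a like level before irradiation. By set the PT means were 5.47 in G2 and 7.02 in G4 of C3H, and 6.12 in G1 and 6.79 in G3 of C57. Of the sets sampled past M1, G1 was thus above G2, and this difference was not tested. The PT mean was 6.25 ± 0.92 (SD, n = 96) in C3H and 6.46 ± 0.67 (SD, n = 96) in C57. The difference, C57 minus C3H, was 0.071 (SE 0.10, edgeR adjusted p = 0.604), whereas 50.7% of the miRNA were called between the strains at PT.

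Sham mice themselves did not stay at their PT level. In C3H sham mice miR-34a-5p was above PT at D2 by 1.36, at D5 by 0.77, at M1 by 1.36, at M2 by 1.03, at M3 by 1.49 and at M4 by 1.28, each called. The edgeR F test over these times had an adjusted p of 8.99e-15, in a comparison that called 46% of all miRNA. In C57 sham mice the level was above PT by 0.82 at D2, 1.19 at M1, 0.87 at M2, 1.68 at M3, 0.80 at M4, 1.29 at M5 and 1.47 at M6, each called, and by 0.10 at D5 (adjusted p = 0.764).

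The C57 F test had an adjusted p of 1.35e-19, with 62.9% of all miRNA called. These shares count changes in either direction. Every effect above is set against sham mice of the same time point. The PT groups hold both sets of mice and the samples after M1 only G1 or G2, whose PT levels were lower than those of G3 and G4. Against their own PT samples the C3H sham mice were higher by a mean of 2.02 at M2, 2.37 at M3 and 2.27 at M4. The C57 sham mice were higher by 1.09 at M2, 1.89 at M3, 1.05 at M4, 1.46 at M5 and 1.52 at M6.

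**Figure D3:**
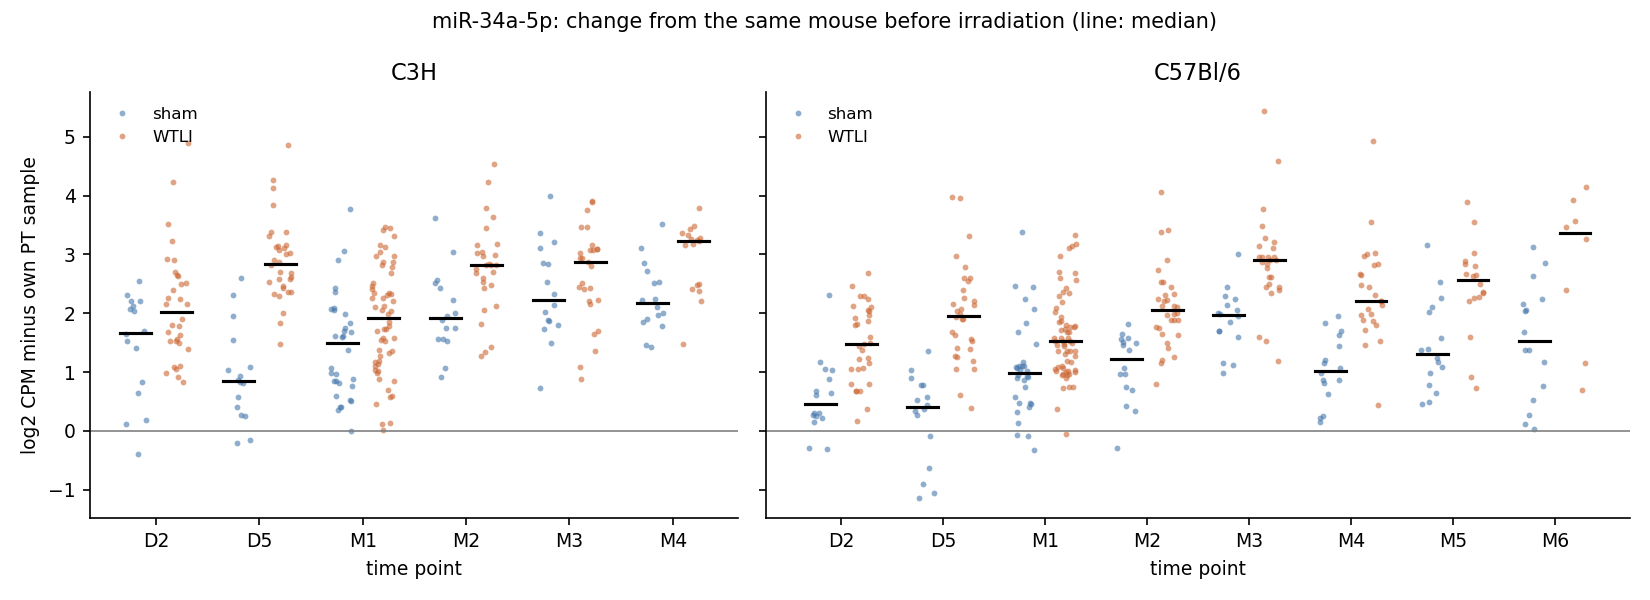
Change of miR-34a-5p from the PT sample of the same mouse (log2 CPM difference, vertical axis) for sham and irradiated mice at each later time point, with the median of each group. At D5 the medians are 0.85 (sham) and 2.85 (WTLI) in C3H and 0.40 and 1.96 in C57.

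Set against their own PT sample, all irradiated mice had more miR-34a-5p at D2 and at D5. At D2 the level was higher in 32 of 32 irradiated and 15 of 16 sham C3H mice, with median changes of 2.03 and 1.67. At D5 it was higher in 32 of 32 irradiated and 14 of 16 sham C3H mice, with medians of 2.85 and 0.85. In C57 it was higher at D2 in 32 of 32 irradiated and 14 of 16 sham mice, with medians of 1.49 and 0.46.

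At D5 it was higher in 32 of 32 irradiated and 11 of 16 sham C57 mice, with medians of 1.96 and 0.40. The changes of the C57 sham mice at D5 ran from -1.15 to 1.37, to both sides of 0. At the later times the level was above PT in every sampled C3H mouse of both treatments and in all but 1 irradiated and 4 sham samples of C57 mice.

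The PT samples had the lowest group means in both strains, and most neighbours in the order were not called as different. In C3H the 6 irradiated groups after exposure were the 6 highest, led by D5 (8.96 ± 0.68, SD, n = 32) and D2 (8.51 ± 0.59, n = 32), followed by M4, M2, M3 and M1. They were followed by sham M3, D2, M4, M1, M2 and D5, and then by both PT groups. D2, D5 and M1 pool both sets and the later months hold G2 only. Within G2 the irradiated means were 8.47 at D5, 8.35 at M4, 8.25 at M2, 8.20 at D2, 8.11 at M3 and 7.89 at M1. Of the 13 neighbouring pairs 1 was called, sham D5 over sham PT (0.77, edgeR adjusted p = 0.00165), against 10.4% over all miRNA in these comparisons. Irradiated D5 against irradiated D2 gave 0.50 (adjusted p = 0.0511).

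In C57 the highest mean was that of irradiated M3 (8.87 ± 0.40, SD, n = 31), followed by irradiated M6, M5, M4 and D5. Sham M3 (8.24 ± 0.50, n = 16) came next, above irradiated M2, M1 and D2. Within G1 the irradiated means were 8.87 at M3, 8.69 at M6, 8.51 at M5, 8.34 at M4, 8.22 at M2, 8.003 at D5, 7.74 at D2 and 7.58 at M1. The remaining sham groups followed in the order M6, M5, M1, M2, M4, D2 and D5, and the PT groups were lowest. Of the 17 neighbouring pairs 1 was called, sham D2 over sham D5 (0.72, edgeR adjusted p = 0.0409), against 15% over all miRNA. The limit given for the C3H pairs holds for these shares too. Sham and irradiated levels at M3 were thus both high in C57, and the level alone, without the sham group of the same time, did not rank the time points by their effect.

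The sets of mice coded in the titles differed in the level of miR-34a-5p before irradiation. At PT the C3H mean was 5.47 ± 0.56 in set G2 and 7.02 ± 0.42 in set G4 (SD, n = 48 each), a difference of 1.55 (SE 0.10), and 34 of 48 G4 mice were above every G2 mouse. In C57 it was 6.12 ± 0.66 in G1 and 6.79 ± 0.48 in G3 (SD, n = 48 each), a difference of 0.68 (SE 0.12), with 18 of 48 G3 mice above every G1 mouse. A two-sided permutation test gave p = 2e-05 in both strains, the smallest that 100000 draws can give. What the set codes stand for is not given in the sources used here.

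The effect of irradiation was present at D5 within each set. It was 1.59 in G2 (SE 0.26, edgeR adjusted p = 4.16e-07) and 1.93 in G4 (SE 0.26, adjusted p = 3.08e-10). In C57 it was 1.30 in G1 (adjusted p = 0.000116) and 2.03 in G3 (adjusted p = 8.56e-12). The F test of the set difference over D2, D5 and M1 had an adjusted p of 1 in C3H, where 0% of the miRNA were called and 11 had an unadjusted p under 0.05, and of 0.416 in C57, where 12.8% were called. At D5 alone the C57 effect in G1 minus that in G3 was -0.74 (unadjusted p = 0.0348, edgeR adjusted p = 0.131).

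Within each set the D5 samples of the treatments lay apart or overlapped slightly. In G4 the 8 sham samples had a lowest, median and highest level of 7.16, 7.35 and 8.38, and the 16 irradiated samples 9.04, 9.44 and 10.08. In G2 the sham samples had 6.35, 6.73 and 7.86, and the irradiated samples 7.68, 8.44 and 10.16. The ranges did not overlap in G4 and overlapped slightly in G2. In G1 the sham samples had 6.02, 6.94 and 7.16 and the irradiated samples 6.87, 8.14 and 8.56. In G3 they had 5.26, 6.80 and 7.17, against 7.20, 8.68 and 9.75 in the irradiated samples, with no overlap.

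**Figure D4:**
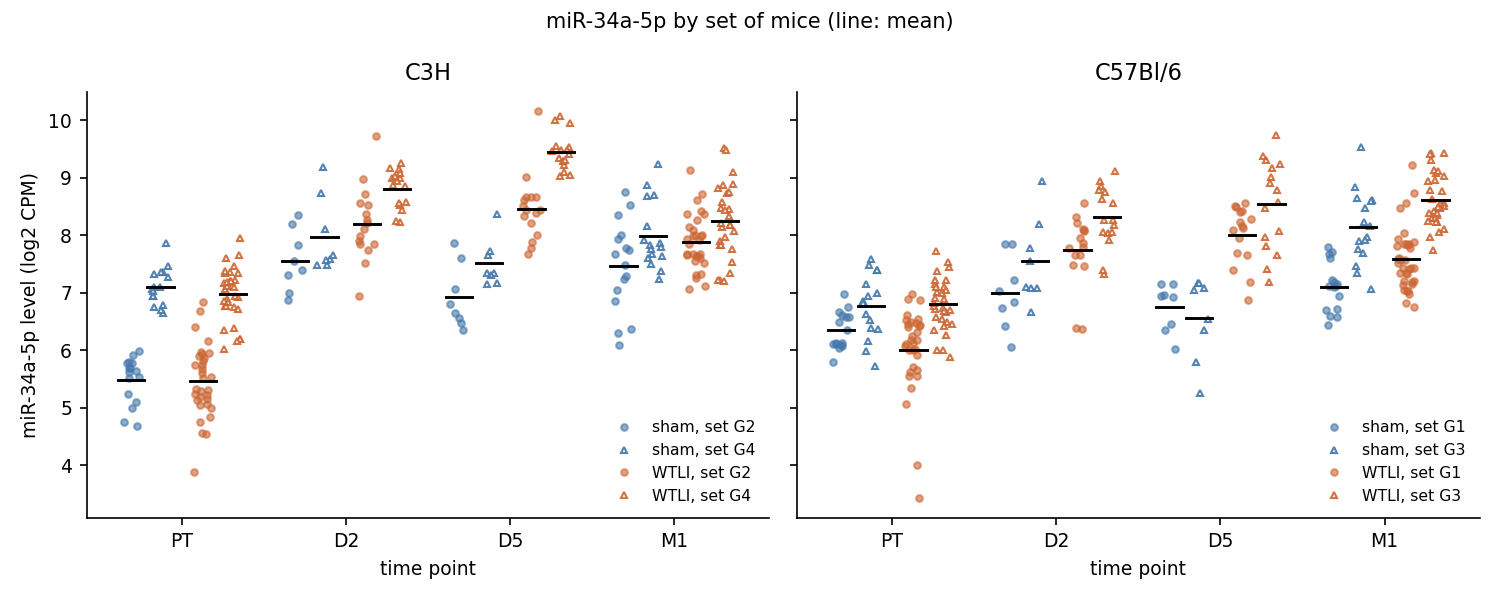
Level of miR-34a-5p (log2 CPM, vertical axis) at PT, D2, D5 and M1 in each set of mice (G2 and G4 of C3H, G1 and G3 of C57), sham and irradiated, with a line at the mean of each group. The PT means differ between the sets (5.47 and 7.02 in C3H), while the D5 effect is 1.59 in G2, 1.93 in G4, 1.30 in G1 and 2.03 in G3.

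The effect was also compared between female and male mice. The study used females somewhat older than the males, so sex and age cannot be told apart in these comparisons. In C3H the edgeR F test of the sex difference had an adjusted p of 1, with 0.621% of the miRNA called, and the effects of females and males were 0.48 and 0.94 at D2 and 2.02 and 1.62 at D5. In C57 the F test had an unadjusted p of 0.0263 and an adjusted p of 0.194, with 6.63% of the miRNA called. The C57 female effect was the higher at each of the 8 times, without passing the adjustment.

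In C57 the values of females and males were 1.19 and 0.22 at D2, 1.90 and 1.48 at D5, 0.65 and 0.25 at M1, and 0.99 and 0.49 at M2. They were 0.70 and 0.53 at M3, 1.19 and 0.80 at M4, 1.27 and 0.34 at M5, and 0.98 and 0.69 at M6. In males alone only the D5 effect was called (edgeR adjusted p = 6.49e-05). In females the D2, D5, M1, M2, M4 and M5 effects were called. At M5 the sham means were 7.35 in females and 8.25 in males, and the irradiated means 8.36 and 8.61. The M6 sham means were 7.12 and 8.61, against 8.03 and 9.36 in irradiated mice (4 of each sex). Irradiated females were thus below irradiated males at both times. At D2, in contrast, irradiated females were higher, 8.28 against 7.78, with sham means of 7.12 and 7.44.

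The irradiated mice of sets G1 and G2 were divided by whether they were still sampled at the last time point, which the study set at M4 in C3H and at M6 in C57. The labels do not give survival, so this compares sampled with no longer sampled mice. At D2 the C3H mice not sampled last were lower, 7.76 ± 0.44 (SD, n = 6) against 8.47 ± 0.60 (n = 10), a difference of -0.71 (SE 0.26, two-sided exact permutation p = 0.0175). At D5, in other mice, they were higher, 8.70 ± 0.61 (n = 9) against 8.16 ± 0.38 (n = 7), a difference of 0.54 (SE 0.25, exact permutation p = 0.0341).

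Both had a Benjamini-Hochberg adjusted p of 0.239 over the 14 comparisons, and none of the 14 passed. The D2 and D5 differences in C3H had opposite signs. In C57 the differences at D2 and D5 were -0.088 and -0.15, on 4 mice sampled last in each.

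Levels of the same irradiated mouse at 2 times were related in part of 8 comparisons. In C3H, r within either set was lower than r over both sets. The PT and D5 levels of C3H mice had r = 0.618 (permutation p = 0.00027, adjusted 0.00216, n = 32) and rho = 0.673 (permutation p = 2e-05), with r = 0.577 without the 2 mice farthest from the median PT level. Within the sets r was -0.153 in G2 and 0.265 in G4 (n = 16 each). The values of r within a set, here and below, were not tested.

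In C57 the PT and D5 levels had r = 0.432 (permutation p = 0.0132, adjusted 0.0298, n = 32) and rho = 0.501 (permutation p = 0.00389), r = 0.419 without the 2 farthest mice, and 0.273 and 0.442 within G1 and G3. The D2 and M1 levels of C57 mice had r = 0.428 (permutation p = 0.0139, adjusted 0.0298, n = 32) and rho = 0.41 (permutation p = 0.0201), r = 0.306 without the 2 farthest, and opposite signs within the sets (0.489 in G1 and -0.298 in G3). The PT and D2 levels had r = 0.424 in C57 (permutation p = 0.0149, adjusted 0.0298, n = 32) and rho = 0.357 (permutation p = 0.0464, adjusted 0.0743), r = 0.328 without the 2 farthest, and 0.374 and 0.0713 within G1 and G3. In C3H they had r = 0.366 (permutation p = 0.0386, adjusted 0.0617, n = 32) and rho = 0.452 (permutation p = 0.00976, adjusted 0.026), r = 0.547 without the 2 farthest, and -0.233 and 0.262 within G2 and G4. For PT and D2, the strain that passed the adjustment thus depended on the coefficient.

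No relation passed the adjustment for the D2 and M1 levels of C3H mice (r = 0.288, permutation p = 0.129, n = 29) or for the D5 and M1 levels of either strain (r = 0.0705 in C3H, permutation p = 0.715, n = 29, and r = 0.212 in C57, permutation p = 0.242, n = 32).

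The relatives of miR-34a were read at lower counts. With edgeR 1 of them, miR-34c-3p, was called at 6 times in either strain, against 2 in C3H and 5 in C57 for miR-34a-5p. With the mouse as a random block in limma-voom, miR-34c-3p was called at 6 times in C3H and 5 in C57, against 3 and 8 for miR-34a-5p. The order in C57 thus depended on the fit, and the difference was not tested. Of the 11 names, miR-34b-3p was read in 890 samples, miR-34c-5p in 892, miR-34c-3p in 895, miR-449a-5p in 718, miR-34b-5p in 496 and miR-449c-5p in 322. miR-449a-3p, miR-449b and miR-449c-3p had 0 reads in all samples together. Besides miR-34a-5p, 5 of them passed the filter, and miR-449c-5p did not. In the edgeR fit without the filter miR-449c-5p, which has the seed of miR-34a-5p, was called higher at M3 in C57. That value (2.76, SE 0.80, edgeR adjusted p = 0.0307) rested on 41 reads in all samples of the contrast, and no other time was called. The median effect of the 6 tested family members, with miR-34a-5p as the highest among them, was 1.01 at D5 in C3H and 0.67 in C57. Over all 483 miRNA it was 0 in C3H and -0.0029 in C57.

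miR-34c-3p is the opposite arm of the hairpin that gives miR-34c-5p. With edgeR it was called higher at 6 of 6 times in C3H and at 6 of 8 in C57. Its largest effect was at D2, 1.92 in C3H (SE 0.26, edgeR adjusted p = 1.25e-10) and 1.21 at that time in C57 (SE 0.26, adjusted p = 0.000172), with 1.51 and 0.99 at D5. It was still higher at M4 in C3H (1.08) and at M5 in C57 (1.25). The largest effect of miR-34a-5p was at D5, that of miR-34c-3p at D2 in C3H and at M5 in C57, and the difference between the miRNA was not tested.

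miR-34b-3p, which shares its seed with miR-34c-3p, was called higher in C3H at D2 (1.61, edgeR adjusted p = 1.33e-06) and D5 (1.17, adjusted p = 0.00345). In C57 its effects were positive at all 8 times, at 0.73 at D2 and 0.68 at D5, without a call (edgeR), while limma-voom called 2 of the 8. miR-34c-5p, the 5p arm of the same hairpin as miR-34c-3p, was called at D5 in C3H (0.85, adjusted p = 0.0223), and its D5 effect in C57 was 0.67 (adjusted p = 0.0549).

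miR-34b-5p and miR-449a-5p are printed above with the seed of miR-34a-5p. Neither was called at any of the 14 times in edgeR or in limma-voom. The seed of miR-34c-5p, which was called at D5 in C3H, was not read here. miR-34b-5p had 1 unadjusted p under 0.05, at M4 in C57 (1.82, SE 0.71, edgeR adjusted p = 0.119), and miR-449a-5p had none. Their SEs were 0.32 to 0.81, against 0.14 to 0.28 for miR-34a-5p, at medians of 1 and 5 reads per sample. A change of the size seen for miR-34a-5p at D2 was therefore not detectable at this depth in most of these contrasts.

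**Figure D5:**
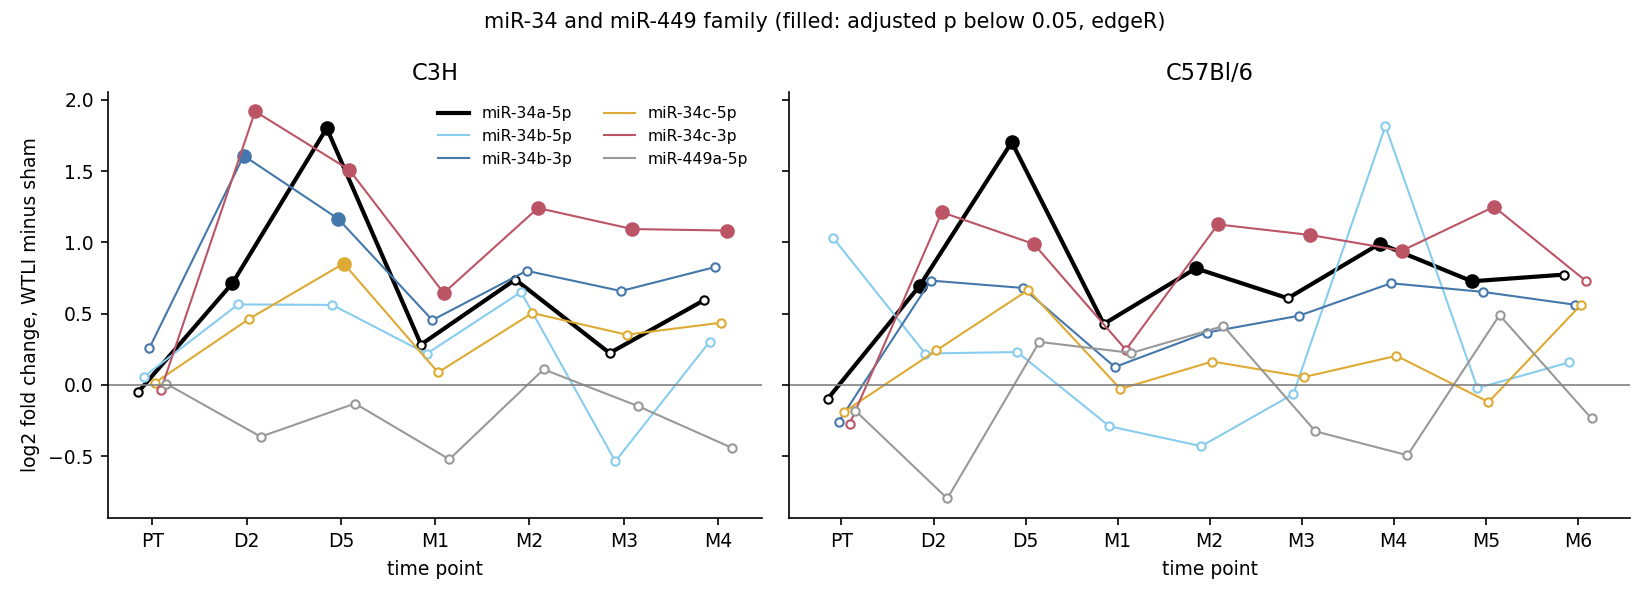
Effect of irradiation (log2 fold change, WTLI minus sham, vertical axis) on the 6 tested members of the miR-34 and miR-449 family at each time point in C3H and C57 mice, with 1 line per miRNA and filled points where the adjusted p was below 0.05. miR-34a-5p reaches 1.80 and 1.70 at D5, and in this edgeR fit miR-34c-3p is called at 6 times in either strain, with 1.92 in C3H at D2.

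Of 12 other miRNA that have been linked to p53, as its targets, as miRNA whose maturation it promotes or as members of its feedback loop, 11 were tested. At D5, where miR-34a-5p peaked, 0 of 11 were called in C3H with edgeR, where 2 had an unadjusted p under 0.05, and in C57 3 were called higher and 1 lower. Over all 483 miRNA 3.11% were called in C3H and 14.1% in C57 at D5. The median of the 11 was 0.085 in C3H and 0.15 in C57. The highest effect among the 11 at D5 was 0.35 in C3H and 1.01 in C57, below that of miR-34a-5p in either strain.

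miR-192-5p, a p53 target that is abundant in liver and gut, was called higher at D2 in C3H (0.72, edgeR adjusted p = 0.00545). In C57 it was called at D2 (0.92), D5 (0.75), M2 (0.69), M4 (1.13) and M5 (1.35), times at which miR-34a-5p was called too. Its cluster partner miR-194-5p was called at M5 in C57 (0.88, adjusted p = 0.037). In C57 at D5 the miR-200 family member miR-141-3p (1.01) and miR-22-3p (0.50) were called higher and miR-200c-3p lower (-0.99), and miR-22-3p was called again at M4 (0.46). miR-107-3p was lower at D2 in C3H (-1.70, adjusted p = 0.0241).

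Markers of blood cells and liver moved at the same times, and their part in the miR-34a-5p values was not tested. Of 8 leukocyte miRNA, 5 were called lower at D2 and 3 at D5 in C3H, and 2 at D2 and 4 at D5 in C57. Over all miRNA 4.97% and 3.11% were called at these times in C3H, and 6.63% and 14.1% in C57. miR-150-5p, a lymphocyte miRNA, fell by 1.70 at D2 and by 1.29 at D5 in C3H, and by 1.55 and 1.10 in C57. The summed leukocyte level at D5 ranged from 13.83 to 14.93 (log2 CPM) in sham and from 13.08 to 14.20 in irradiated C3H mice, and from 13.81 to 14.76 and from 13.04 to 14.77 in C57. miR-34a-5p was thus higher where the leukocyte list was lower. At the later calls in C57 the leukocyte list had 1 miRNA higher at M2, miR-150-5p at 0.54, and 0 called at M4 and M5.

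Of 6 red blood cell miRNA, 0 were called at D2 with edgeR, where 3 in C3H and 2 in C57 had an unadjusted p under 0.05, and 2 in C3H and 1 in C57 were called higher at D5, against 3.11% and 14.1% of all miRNA called. miR-144-5p was called in both (1.14 and 1.52), and miR-451a, the defining red blood cell miRNA, was not called at any time (0.082 and -0.20 at D5). The summed red blood cell level at D5 ranged from 18.40 to 20.10 in sham and from 18.31 to 20.27 in irradiated C3H mice, and from 18.55 to 20.15 and from 18.20 to 20.39 in C57. These ranges were nearly the same in both treatments.

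Of 3 liver miRNA, of which miR-192-5p stands in the p53-linked list as well, 2 were called higher at M2, 1 at M3, 2 at M4 and 3 at M5 in C57, where miR-34a-5p was called at M2, M4 and M5. Of all miRNA 3.31%, 1.66%, 4.76% and 3.52% were called at these 4 times. The hepatocyte miRNA miR-122-5p had effects of 1.36 at M2, 2.97 at M4 and 3.23 at M5. At D5, in contrast, miR-122-5p was lower in C57 (-1.74). Of the 3 liver miRNA 1 was called higher and 2 lower at D5 in C57, and 0 in C3H, against 14.1% and 3.11% of all miRNA. At D2, 1 was called higher and 1 lower in each strain, against 4.97% of all miRNA in C3H and 6.63% in C57. At M1, 1 was called higher in C3H, against 3.31%. The summed liver level at M5 ranged from 11.77 to 13.49 in sham and from 12.43 to 17.57 in irradiated C57 mice. No endothelial or muscle miRNA was called in C3H, and in C57 an endothelial miRNA was called higher at D5 and at M2 and a muscle miRNA at D5 and at M4.

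The miRNA with the most similar pattern to miR-34a-5p were sought among 163 abundant miRNA outside its family. Over the 14 effects after irradiation the highest r belonged to miR-101a-3p (0.85), miR-29c-3p (0.83), miR-361-5p (0.80), miR-144-5p (0.80) and miR-29a-3p (0.79). These points share sham groups, mice and library scaling, so r is a description only. All 5 were called higher at D5 in C57, with effects of 0.37 to 1.52 that were below that of miR-34a-5p. Of them miR-144-5p was called at D5 in C3H too. Of all miRNA 14.1% were called at D5 in C57 and 3.11% in C3H. The 5 were picked for their likeness to effects that were highest at D5, so their D5 calls are no separate result.

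Over all samples, after the group means were removed, the highest r belonged to miR-218-5p (0.62), miR-146a-5p (0.58), miR-101a-3p (0.52), miR-21a-5p (0.49) and miR-532-5p (0.49). These samples share mice, sets and depth. miR-101a-3p was in both lists, whereas miR-146a-5p, a leukocyte miRNA, had r = -0.20 over the effects. miR-21a-5p ranked the sixth of 163 over the effects and the fourth over the samples, and miR-29a-3p the fifth and the ninth.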

How the data were processed

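The authors isolated RNA from plasma, prepared libraries with the QIAseq miRNA kit, trimmed and aligned the reads with BaseSpace Small RNA (mouse, mm10), and deposited raw read counts per mature miRNA. Plasma with much hemolysis and runs with few miRNA reads had been removed. The miRBase release and the use of molecular identifiers are not given in the sources used here, so count intervals cover counting error only. Columns were matched to samples by title, and 0 were left over.

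From the counts, 483 of 1915 miRNA (99.99% of reads) passed filterByExpr. TMM factors ranged from 0.372 to 1.59. edgeR's quasi-likelihood test was fitted with 32 means of strain, treatment and time point (867 residual degrees of freedom), and log2 CPM used a prior count of 2. Repeated samples of a mouse enter this fit as independent. They pair by animal, as the labels number the mice, and the correlation of miR-34a-5p within a mouse was 0.345 (0.0434 over all miRNA), so the mouse was a random or fixed block in alternatives with limma-voom. The other alternatives were DESeq2, its size factors in edgeR, no filter, quantile-normalized log2 RPM with limma, fits of 1 sex, set or pair of groups, and covariates. Added after seeing the data were the fit of libraries of at least 500000 reads and other settings for the sham, PT strain and mouse set comparisons. Versions were R 4.3.3, edgeR 4.0.16, limma 3.58.1, DESeq2 1.42.0 and SciPy 1.17.1.

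On simulated counts for C3H at D5, 58.8% of 199 changed miRNA among 477 were recovered and 2.5% of the calls were false. The simulated samples were independent and had no differences between mice, sets or time points. These rates therefore need not hold for the data, which have such differences. The members and lists were chosen with earlier results of these data known. Named were both arms, relatives with a read, called members of the p53-linked list, the 5 miRNA most alike by either measure, and miR-150-5p and miR-451a. miR-122-5p and miR-144-5p were named after their values were seen. miR-605-5p was not analysed here.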

Additional observations from a re-analysis of the deposited data

How the results depend on the processing

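All 208 recomputed effects of irradiation on miR-34a-5p after exposure were positive; 173 stayed on their side of the threshold, 12 lost and 23 gained a call. The D5 effect was called in all 16 alternatives in C3H (1.59 to 2.02, highest adjusted p 1.17e-05) and in C57 (1.30 to 2.03, highest 0.000116). The cause of the following changes was not tested, and fits of 1 sex or set hold fewer samples. Calls were lost in C3H at D2 with females (0.48), males (0.94), set G2 (0.70), set G4 (0.72) and the fixed replicate block (0.60). In C57 they were lost with males at D2 (0.22), M2 (0.49), M4 (0.80) and M5 (0.34), with set G3 at D2 (0.68), and at M5 with quantile normalization (0.72) and with mice that had a PT sample (0.63). Calls were gained in C3H at M2 with DESeq2 or its size factors (0.79), no filter (0.79), limma-voom (0.73), the random and fixed block (0.73 and 0.83), the 2 groups alone (0.83) and set as covariate (0.74). At M1 in C57 they were gained with females (0.65), DESeq2 or its size factors (0.46), limma-voom and the random block (0.48), quantile normalization (0.46) and set (0.46). At M3 in C57 this held for limma-voom (0.63), the random and fixed block (0.64 and 0.84), quantile normalization (0.75), the 2 groups alone (0.59) and set (0.61), and at M6 for the random and fixed block (0.91 and 1.18). The D5 effect minus that at D2 was called in C3H without a filter (1.08) and with the random block (1.07), and not called in C57 with limma-voom (0.86) and the random block (0.92). The block changed no other call. Uncalled values changed sign for C3H at PT with females (0.17) and set G2 (0.073), for mice not sampled last in C57 at D2 with males (0.45) and at M4 with raw library sizes (-0.043), and for r between D5 and M1 in C3H with raw library sizes (-0.105). No scaling moved the median of all miRNA by over 0.1 log2. Depth limits the 3p arm and the relatives with few reads.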
